A study of Mus musculus with 2 samples.

Results

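The mitochondrial ribosome is built from proteins encoded in the nucleus, and this report describes the RNA of those proteins in LSK cells of a mouse model of chronic myeloid leukemia (CML) with and without miR-142. The members were every gene whose symbol starts with Mrpl or Mrps followed by a digit, with pseudogenes left out, which gave 78 of the 32285 genes counted: 49 named for the large subunit and 29 named for the small subunit. LSK cells are the lineage-negative, Sca-1-positive and c-Kit-positive bone marrow fraction that holds stem cells and early progenitors. Both groups carried SCLtTA/BCR-ABL, in which the SCL promoter drives BCR-ABL once tetracycline is withdrawn, on the B6 background, so the controls were leukemic mice too. The groups were miR-142+/+ BCR-ABL LSKs (miR-142 WT CML) and miR-142-/- BCR-ABL LSKs (miR-142 KO CML), taken 2 weeks after BCR-ABL induction from mice 8 to 10 weeks old. There was 1 single-cell library per group, and the number of mice behind each was not given, so no test between the groups was possible and no p-value is given. Every interval below is a 95% interval for counting error alone.

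Mitochondria carry their own ribosome, which translates only the messages of the mitochondrial genome. Those messages encode 13 proteins, all subunits of the oxidative phosphorylation (OxPhos) complexes, whose other subunits come from nuclear genes and cytosolic ribosomes. The small subunit reads the message, and the large subunit joins the amino acids. Some mitoribosomal proteins have a relative in the bacterial ribosome and others are found only in mitochondria. All are imported after translation in the cytosol, so that their RNA is measured here beside, and not as, the assembled ribosome. In blood formation, stem cells at rest rely little on oxidative metabolism, and differentiating progenitors rely on it more.

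Cells were barcodes with at least 8000 unique molecular identifiers (UMIs, each standing for 1 captured RNA molecule) and under 10% mitochondrially encoded UMIs, which left 5363 WT and 5458 KO cells with 138183896 and 158438757 UMIs. The median cell held 19443 UMIs in WT and 24181.5 in KO. The libraries shared 4 of these barcodes. The label check went the way the labels say, since Mir142hg, the host transcript of miR-142, had 1260 UMIs in WT and 20 in KO. Of the LSK markers, Kit was at 86.4 CPM (a gene's UMIs over all UMIs of the cells, scaled to a common total) in WT and 68.3 in KO and Ly6a, which encodes Sca-1, at 96.8 and 153, while Cd3e and Ly6g, markers of lineages the sort removes, had 14 UMIs or fewer in each library. A 3′ library counts 1 tag per molecule, so CPM was not divided by transcript length.

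Pooled over all cells, RNA of the mitochondrial ribosomal proteins took a larger share of the transcriptome in the miR-142 KO library. The 78 genes summed to 9200 CPM in WT and 10470 in KO, a log2 ratio of 0.19 (0.18 to 0.19). The large subunit went from 6132 to 6950 CPM (log2 0.18) and the small subunit from 3069 to 3520 CPM (log2 0.20), so both subunits were higher by a similar amount. The shift was spread over the genes rather than carried by a few. The median log2 ratio was 0.15 for the large subunit and 0.16 for the small, while the median over all 7482 genes with a mean of at least 10 CPM was -0.08. All 78 members passed that floor. The ratio was above 1 for 69 members, beside 38.1% of all genes tested. For 57 members the counting interval lay wholly above 0 on the log2 scale (30.7% of all genes), and for 2 members, Mrpl13 and Mrpl42, wholly below it (53.2% of all genes). The steps were small. Past a step of 0.322 on the log2 scale, 7 members were higher in KO (7.60% of all genes) and 0 were lower (18.8% of all genes). In barcodes with at most 100 UMIs, which hold free RNA rather than cells, the members took 10158 CPM in WT and 11341 in KO, so free RNA carried a difference of the same direction. In sums over a library, more cells of a type and more RNA per cell cannot be told apart, which is why groups of cells are taken up below.

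**Figure D1:**
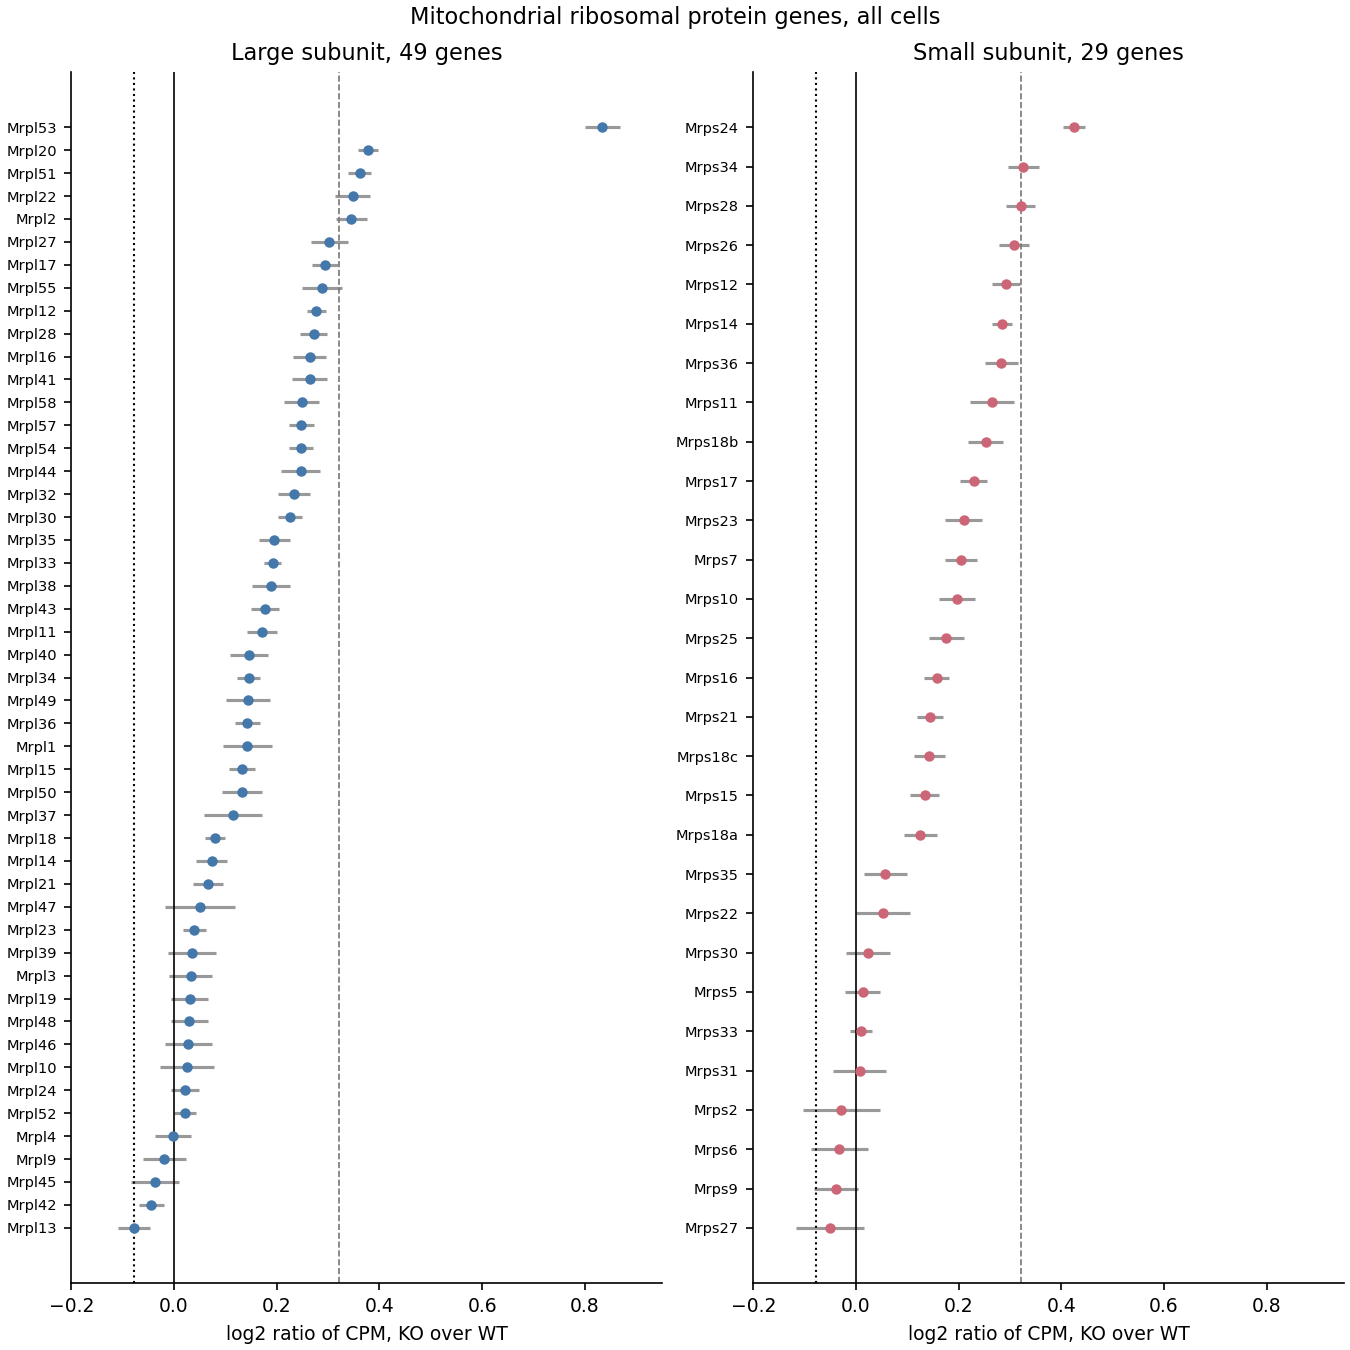
Log2 ratio of CPM, KO over WT, for each of the 78 mitochondrial ribosomal protein genes over all cells, with large and small subunit genes apart and bars for the counting interval. Most points lie above 0 and above the all-gene median of -0.08, and Mrpl53 stands alone at 0.83.

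The 7 members past that step were led by Mrpl53, a large subunit protein with no bacterial relative, at 72.8 CPM in WT and 129.8 in KO (log2 0.83, 0.80 to 0.87). This step was 1.78-fold, and the next was Mrps24, a relative of bacterial S3 near the entry of the message, at 214.8 and 288.5 CPM (log2 0.43). Mrpl20, which has a bacterial relative in the core of the large subunit, went from 261.2 to 339.5 CPM (log2 0.38). Mrpl51, found only in mitochondria, went from 183.6 to 235.9 CPM (log2 0.36). These 4 genes differ in origin and place in the ribosome. Mrpl22, whose bacterial relative lines the exit tunnel of the new protein, was at 86.2 and 109.7 CPM (log2 0.35). Mrpl2, whose bacterial relative sits by the peptidyl transferase centre, was at 104.0 and 132.1 CPM (log2 0.35). Mrps34, a mitochondria-specific protein of the small subunit, was at 113.0 and 141.6 CPM (log2 0.326), just past the step of 0.322, and Mrps28, a relative of bacterial S1, fell just short of it at 124.5 and 155.6 CPM (log2 0.321). Without Mrpl53 the log2 ratio of the sum was 0.18. The counts of Mrps24, Mrps34 and Mrps6 are uncertain because each overlaps another counted gene on its own strand (Urgcp, Nme3 and Slc5a3).

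The members named for their roles spanned most of the range. Mrps12, whose bacterial relative takes part in decoding, was at 131.8 CPM in WT and 161.4 in KO (log2 0.29), and Mrps14, which also has a bacterial relative, at 260.7 and 317.6 CPM (log2 0.28). The stalk of the large subunit, which receives the translation factors, was uneven. Mrpl12, the stalk protein itself, went from 302.0 to 366.1 CPM (log2 0.28), while Mrpl10, which anchors it, was at 39.3 and 40.0 CPM (log2 0.03). Mrpl58, a peptidyl-tRNA hydrolase that became a ribosomal protein, was at 87.8 and 104.3 CPM (log2 0.25), and Mrpl44, related to a ribonuclease family, at 69.8 and 82.8 CPM (log2 0.25). Mrpl45, which lies at the tunnel exit facing the inner membrane, was at 49.8 and 48.5 CPM (log2 -0.04). Mrps26, a mitochondria-specific small subunit protein, was at 116.8 and 144.6 CPM (log2 0.31).

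The relatives of bacterial S18 differed in size of step. Mrps18b was at 89.0 and 106.0 CPM (log2 0.25), Mrps18c at 113.2 and 125.0 CPM (log2 0.14) and Mrps18a at 101.0 and 110.2 CPM (log2 0.13). Mrps18a and Mrps30 carry small subunit names but are part of the large subunit in the known structure, and Mrps30 was at 58.9 and 59.9 CPM (log2 0.02). Mrps36, now known as a component of the 2-oxoglutarate dehydrogenase complex, was at 98.4 and 119.7 CPM (log2 0.28). With Mrps18a and Mrps30 moved and Mrps36 left out, the log2 ratio was 0.18 for the large subunit and 0.20 for the small.

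The most abundant members took steps of different size, since Mrps24 and Mrpl20, described above, are among them. Mrpl33, the member with the highest level in WT, was at 392.3 and 448.2 CPM (log2 0.19), Mrpl18 at 272.7 and 288.1 CPM (log2 0.08), Mrps33 at 226.0 and 227.6 CPM (log2 0.01) and Mrps16 at 187.4 and 209.0 CPM (log2 0.16). At the low end, Mrpl13 was at 116.8 CPM in WT and 110.7 in KO (log2 -0.08) and Mrpl42 at 191.6 and 185.9 CPM (log2 -0.04). The intervals of Mrps27 (log2 -0.05), Mrps9 (-0.04), Mrps6 (-0.03), Mrps2 (-0.03), Mrpl9 (-0.02), Mrpl4 (-0.00) and Mrps31 (0.01) spanned 0, as did those of 19 members in all. Members with a bacterial relative (48 genes) and those found only in mitochondria (30 genes) had medians of 0.15 and 0.14.

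Members differed in level between the kinds of LSK cell, so the same genes were then read within cell groups. Each cell was thinned at random to 8000 UMIs and placed in a gate by marker genes. The granule gate needed all of Elane, Prtn3 and Ctsg, proteases of neutrophil granules, with at least 20 UMIs in sum. The lymphoid gate needed 2 of Flt3, Dntt, Rag1 and Ccr9, the megakaryocyte gate 3 of 9 platelet lineage genes such as Pf4 and Itga2b, and the mast cell and basophil gate 3 of 9 genes such as Mcpt8 and Fcer1a. A gate for hematopoietic stem cells (HSC) needing 3 of 7 genes such as Mecom, Procr and Slamf1 held only 49 KO cells, under the minimum of 50, so a looser gate of 2 of these genes was used after the cell numbers were seen. Cells that met more than 1 gate were set aside. Of the genes outside the gates' lists, Mpo, Hlf and Vwf went with the names, and Mycn did not. Mpo was at 3050.5 CPM in WT and 2217 in KO in the granule gate and at most 384 in the other groups. Hlf, a stem cell factor, was highest in the HSC gate at 202 and 82.3 CPM, and Vwf was highest in the megakaryocyte gate at 19.5 and 27.7 CPM. Mycn, also chosen as a check of the HSC gate, was at 66.8 and 36.7 CPM there. It was higher in the megakaryocyte gate, at 85.9 and 81.4 CPM. Levels inside the HSC gate differed between the libraries, as the Hlf values show. The proliferation gene Mki67 was at 185 CPM in WT and 118 in KO there, and Elane, Prtn3, Ctsg and Mpo together at 871 and 1457 CPM. The part of the HSC gate's makeup in the members' values was not tested.

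Across these groups the granule gate had the highest mitoribosomal level in both libraries. In WT the members summed to 11532 CPM in the granule gate, 8274 in the megakaryocyte gate, 8119 in cells in no gate, 7988 in the lymphoid gate, 7682 in the mast cell and basophil gate and 7184 in the HSC gate. In KO the sums were 11385 CPM in the granule gate, 8575 in the megakaryocyte gate, 8459 in no gate, 8146 in the lymphoid gate, 7508 in the HSC gate and 6647 in the mast cell and basophil gate. The step between the granule gate and the rest was larger than any step between the libraries. Of the 78 members, 71 had their highest level in the granule gate in WT (30.2% of all genes tested) and 71 in KO (26.9%), and a median member exceeded its level in ungated cells by 0.53 on the log2 scale in WT and 0.45 in KO. The same medians over all genes tested were -0.05 and -0.08. The 2 libraries differed in how many cells the granule gate held: 847 cells in WT (15.8%, with 33.4% of UMIs) and 2794 in KO (51.2%, with 69.4% of UMIs). Near the limit of the gate, at 15 to 24 UMIs of the 3 genes, lay 564 WT and 551 KO cells.

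**Figure D2:**
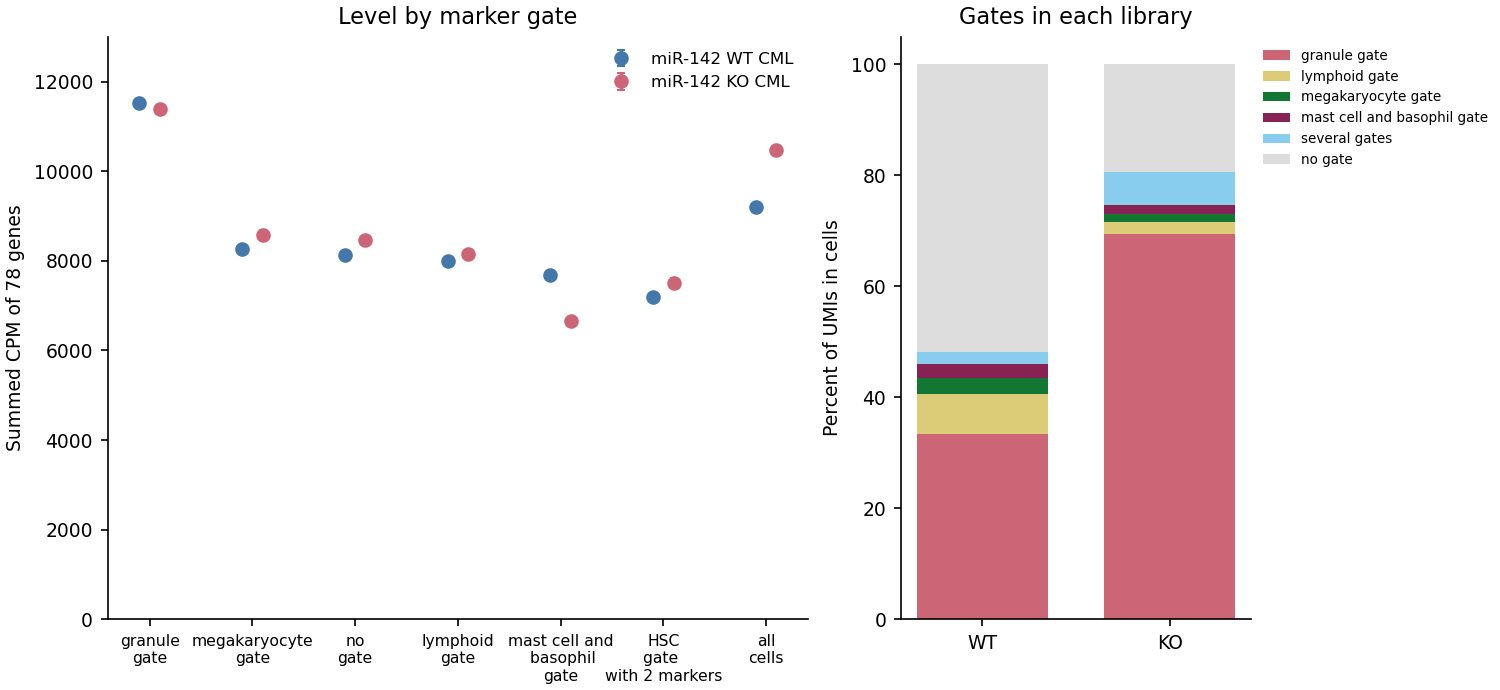
Summed level of the mitochondrial ribosomal protein genes (CPM, linear axis) in each cell group of the WT and KO libraries, with counting intervals. The granule gate stands at 11532 CPM in WT and 11385 in KO, and the next group, the megakaryocyte gate, at 8274 and 8575.

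Within most groups the summed levels of the libraries differed little, though their cells were not alike. The median WT cell was deeper in every gate and among cells in no gate. It held 54360 UMIs against 38230.5 in KO in the granule gate, and 20253.5 against 14336.5 in the lymphoid gate. Cells high in G2/M genes made up 31.9% of the granule gate in WT and 19.6% in KO. The part of depth and cell cycle in these ratios was not tested. In the granule gate the log2 ratio was -0.02 (-0.02 to -0.01), which turned to 0.055 with median-ratio size factors, with the large subunit at 7726 CPM in WT and 7552 in KO and the small subunit at 3806 and 3833. Here 30 of 78 members had a ratio above 1, beside 36.9% of all genes tested in that gate. The granule genes Elane, Prtn3, Ctsg and Mpo together were at 13864 CPM in WT and 17549 in KO inside the gate. They did not all go the same way: Elane went from 1912 to 3599 CPM and Mpo from 3050.5 to 2217. Elane, Prtn3 and Ctsg also define the gate. The part of these granule genes in the members' values was not tested. In the lymphoid gate (448 and 204 cells) the log2 ratio was 0.03, with 42 members above 1 (45.4% of all genes). In the megakaryocyte gate (220 and 165 cells) it was 0.05, with 46 members above 1 (43.7%). In the HSC gate (786 and 208 cells) it was 0.06, with 45 members above 1 (44.4%). In cells in no gate (3286 and 1644 cells), which include 537 WT and 159 KO cells of the looser HSC gate, it was 0.06, with 45 members above 1 (41.7%). These 4 groups leaned to KO by far less than the pooled value. All cells outside the granule gate together were at 8012 and 8125 CPM (log2 0.02), with 36 members above 1 (41.3%). The mast cell and basophil gate went the other way, at 7682 CPM in WT and 6647 in KO (log2 -0.21, -0.24 to -0.18), with 13 of 78 members above 1 (46.8%). When cells that also met other gates were kept, this gate was at 0.0098 and the megakaryocyte gate at -0.040, so both directions turned.

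**Figure D3:**
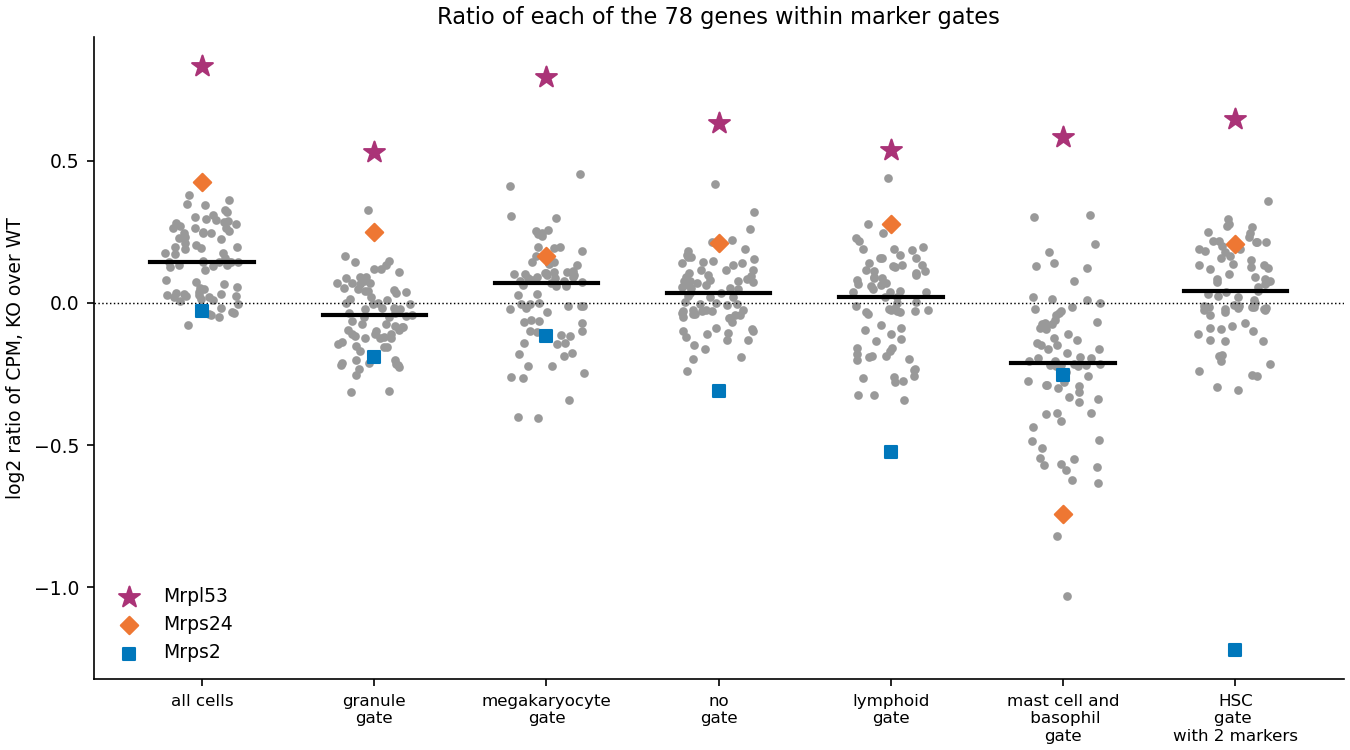
Log2 ratio, KO over WT, of each mitochondrial ribosomal protein gene over all cells and within each cell group, with a bar at the median gene. The medians of the granule, lymphoid, megakaryocyte, HSC and ungated groups lie between -0.04 and 0.07. The median of the mast cell and basophil gate is -0.21. For the summed UMIs, size factors turn the granule gate from -0.02 to 0.055. Keeping cells of several gates turns the sum of the mast cell and basophil gate from -0.21 to 0.0098.

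To hold the shares of most cell groups fixed, both libraries were weighted to the same mix, each group taking its share of the UMIs of both libraries together. Cells of several gates, set aside above, were a group of their own here. HSC, erythroid and innate lymphoid cells were counted with the cells in no gate, so their shares were not held fixed. The members then stood at 9864 CPM in WT and 9943 in KO, a log2 ratio of 0.01, with 0.00 for the large subunit and 0.03 for the small. The medians turned to -0.01 and -0.02. At this mix 35 of 78 members were above 1, beside 37.5% of all genes tested. Mrpl20, at 0.38 in the pooled cells, was at 0.04, and Mrpl51, at 0.36, was at 0.05. Mrps34 was at 0.12 and Mrpl22 at 0.11, and of the 7 members past the step of 0.322 before, only Mrpl53 stayed past it, at 0.59. Of the genes with values close to WT in the pooled cells, Mrpl42 moved to -0.29, Mrps27 to -0.24 and Mrps2 to -0.22.

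**Figure D4:**
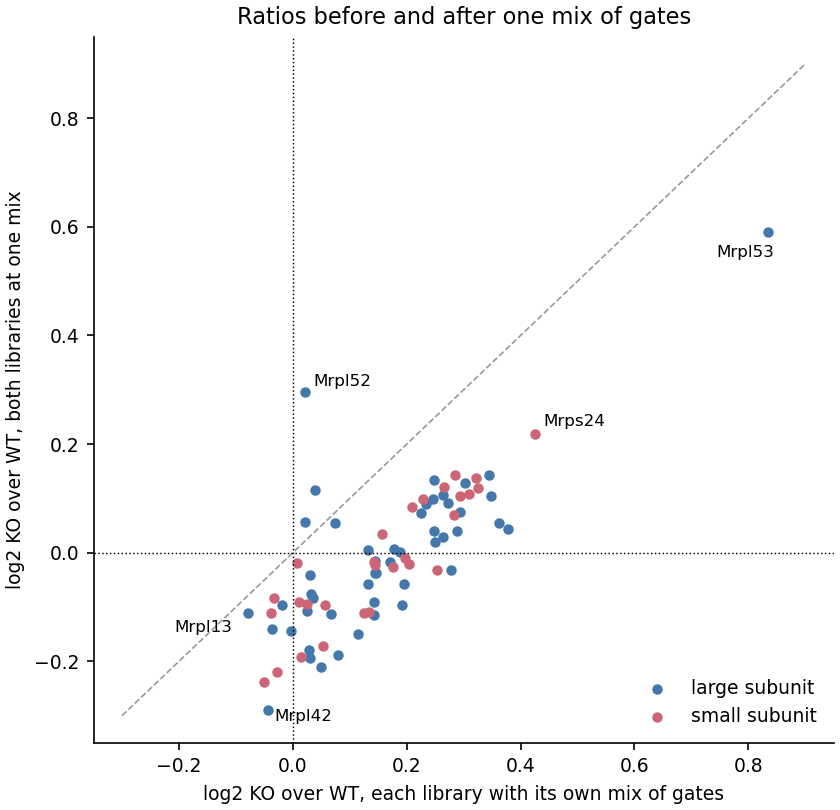
Log2 ratio, KO over WT, of each mitochondrial ribosomal protein gene over all cells (horizontal axis) against the ratio with both libraries weighted to one mix of cell groups (vertical axis). The points move down around 0 on the vertical axis, and Mrpl53 remains apart at 0.59.

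Mrpl53 was higher in KO in each of the 6 groups, the granule gate included. It stood at 98.4 CPM in WT and 142.3 in KO in the granule gate (log2 0.53) and at 57.7 and 99.99 CPM in the megakaryocyte gate (log2 0.79). Among cells in no gate it was at 60.4 and 93.8 CPM (log2 0.63), in the HSC gate at 53.0 and 83.0 CPM (log2 0.65), in the lymphoid gate at 59.3 and 86.1 CPM (log2 0.54) and in the mast cell and basophil gate at 74.4 and 111.6 CPM (log2 0.58). Every interval lay above 0, and the KO levels of the granule, megakaryocyte and mast cell and basophil gates were above the WT level of every group. Free RNA held Mrpl53 at 81.2 CPM in WT and 152 in KO. The gene is at chr6:83109040-83109939 on the plus strand (GRCm38), with a longest coding transcript of 695 bases. An annotated same-strand gene, Gm42688, overlaps the exons of Mrpl53 and was not counted apart, so the RNA of both cannot be told apart where they overlap. The neighbours showed no step of that size: Mogs was at 105.7 and 120.7 CPM (log2 0.19), Ino80b at 49.7 and 53.3 (log2 0.10) and Wbp1 at 34.3 and 29.2 (log2 -0.23), while the antisense Ccdc142os had 341 and 258 UMIs and Ccdc142 81 and 59.

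Because the groups differ by miR-142, the 3′ UTRs of the members were searched for its seed matches. The mature sequences (RefSeq, GRCm38, plus strand, chr11:87756867-87756887 and chr11:87756903-87756925) are shown with the seed, bases 2 to 8, in capitals, followed by 2 windows of 3′ UTR with the 5p match in capitals, those of the 2 leading members that hold one.
mmu-miR-142a-5p: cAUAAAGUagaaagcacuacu
mmu-miR-142a-3p: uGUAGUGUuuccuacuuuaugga
Mrpl53: ctcagtgtttaACTTTATttggatctgtc
Mrpl51: atataccaagtACTTTATagtgagctata

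The Mrpl53 match begins at base 212 of a 3′ UTR of 269 bases and the Mrpl51 match at base 1122 of 2853. In the longest annotated 3′ UTR of each gene on its own strand, ACTTTAT (5p) was found in 10 of 78 members (12.8%) and in 15.98% of 7346 tested genes. ACACTAC (3p) was found in 5 members (6.41%) and in 6.60% of tested genes. Members with the 5p match had a median log2 ratio of 0.16 and those without it 0.15. For the 3p match the medians were 0.17 and 0.15. The holders of the 5p match ran from Mrpl53 at 0.83 and Mrps14 at 0.28 down to Mrpl48 at 0.03 and Mrps6 at -0.03. The members have short 3′ UTRs, with a median of 391.5 bases against 1066 in all tested genes. A match of letters is a description of the sequence and not a measured site.

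A ratio above 1 in all 6 groups was found for 6 members, beside 10.3% of all genes tested, so this count is no larger than the background. Apart from Mrpl53 they were Mrpl22, Mrpl2, Mrps11, Mrpl32 and Mrpl24, of which the last 3 were picked out after their values were seen, and the lowest ratio of Mrpl24 was level with 0. Mrpl2 ran from log2 0.07 in the megakaryocyte gate to 0.27 in the HSC gate. In 10 members, Mrpl42 and Mrps2 among them, the ratio was above 1 in none of the 6 groups, beside 18.7% of all genes, so this count too is no larger than the background. Mrpl42, a mitochondria-specific large subunit protein, went from 259.3 CPM in WT to 208.5 in KO in the granule gate (log2 -0.31), and its ratios ran from -0.14 in the megakaryocyte gate to -0.59 in the mast cell and basophil gate. Its pooled value of -0.04 thus stood above its value in every group. Mrps2, a relative of bacterial S2 and the member with the lowest level in WT, was at 24.4 and 21.4 CPM in the granule gate (log2 -0.19) and at 18.1 and 7.77 CPM in the HSC gate (log2 -1.22, -1.93 to -0.59), the latter from 211 and 22 UMIs. Mrpl13, a relative of bacterial L13, ran from 0.02 in the lymphoid gate to -0.40 in the megakaryocyte gate.

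Mrpl52, a mitochondria-specific large subunit protein named here after its values were seen, ran against the other members by cell group. It was the only member with its lowest level in the granule gate, in WT (27.3% of all genes tested) and in KO (26.7%) alike. It was at 168.7 CPM in WT and 211.7 in KO there, at 346.2 and 412.2 in the megakaryocyte gate, 328.2 and 382.1 in the HSC gate, 275.0 and 343.5 in no gate, 273.4 and 331.7 in the lymphoid gate and 242.9 and 212.9 in the mast cell and basophil gate. The ratio was above 1 in 5 of these 6 groups, with log2 values from 0.22 to 0.33, and -0.19 in the mast cell and basophil gate. Pooled over all cells the 2 libraries were nearly level, at 241.9 and 245.5 CPM (log2 0.02), and at one mix of groups the log2 ratio was 0.30. Over the 12 points of 6 groups in 2 libraries, its level had a Pearson correlation of -0.50 with the sum of the other members. The points share libraries, and the correlation is given as a description.

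By the same measure the median correlation of a member with the sum of the others was 0.90, beside 0.03 over all genes tested. A value of 0.9 or above was found for 38 members (4.84% of all genes), Mrpl12, Mrps18b and Mrpl35 leading with 0.99 each. The granule gate stands apart from the other points, and the HSC and ungated points share cells, so a gene high in the granule gate scores high by this measure. Mrpl12 had the widest spread over the WT groups, 2.62-fold, at 447 CPM in the granule gate and 170 to 237 in the others. Mrpl14, a relative of bacterial L14, had the narrowest, 1.23-fold, and a correlation of 0.33. Mrpl23 (0.11) and Mrpl24 (0.24) also followed the others little, and both were no higher in the granule gate than in cells in no gate. Mrpl53 was at 0.47.

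Mrps24 did not keep 1 direction over the groups. It was higher in KO in the granule gate (267.9 and 318.2 CPM, log2 0.25), the lymphoid gate (170.1 and 206.5, log2 0.28), the HSC gate (160.9 and 185.8, log2 0.21), the cells in no gate (182.9 and 211.8, log2 0.21) and the megakaryocyte gate (202.4 and 226.9, log2 0.16). In the mast cell and basophil gate it was at 341.0 CPM in WT and 203.7 in KO (log2 -0.74, -0.90 to -0.59). The WT level of that gate was the highest of all groups of both libraries.

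Marker levels inside the mast cell and basophil gate also differed between the libraries. The basophil proteases Mcpt8 (4811 CPM in WT and 2101 in KO) and Prss34 (5224 and 3673) were lower in KO, while Cd200r3, another basophil gene, was higher (373 and 483). Fcer1a (1695 and 2871) and Ms4a2 (473 and 777), receptor genes of both cell types, were higher in KO too, as were the mast cell proteases Cpa3 (9570 and 16878) and Cma1 (10477 and 13758). The other genes of the gate's list were Hdc (964 and 893), Gzmb (1024 and 1474) and Cyp11a1 (1200 and 1464). All of these genes but Cpa3 were used to pick the cells, so their levels depend on the gate. The proliferation gene Mki67 was at 170 and 82.0 CPM. Split after these values were seen, cells with a Mcpt8 UMI (100 in WT, 88 in KO) held the members at 7627 CPM in WT and 6859 in KO, and cells without one (46 and 51) at 7860 and 6150 CPM. The members and Mrps24 were lower in KO on both sides of that split, with Mrps24 at 374 and 220 CPM and at 234 and 166 CPM. The part of the gate's makeup in these values was not tested.

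The pooled difference was also read across the cell cycle and across depth. Cells with the fewest cell cycle UMIs held the members at 6608 CPM in WT and 7519 in KO (log2 0.19), those high in S phase genes at 9946 and 10912 (log2 0.13) and those high in G2/M genes at 9389 and 10892 (log2 0.21). All 3 ranges leaned to KO, and the 4 granule genes moved with them, in the first from 1589 CPM in WT to 6752 in KO. Inside the group of cells in no gate the log2 ratio was 0.14 for the cells with the fewest cycle UMIs (6637 and 7306 CPM), 0.04 for those high in S genes and 0.10 for those high in G2/M genes, while the granule genes went from 1169 to 2270 CPM in the first of these. In the granule gate the same ratio was -0.02 in S-high and 0.03 in G2/M-high cells. In the lymphoid gate it was 0.12 (0.08 to 0.16) for the cells with the fewest cycle UMIs (132 in WT and 109 in KO). The whole lymphoid gate was at 0.03. Its S-high and G2/M-high cells were too few in KO for a value (22 and 25). Cells of 8000 to 16000 UMIs were at 6974 and 7279 CPM (log2 0.06) and deeper cells at 9670 and 10910 (log2 0.17). Their granule genes were at 1212 and 2987 CPM and at 6802 and 14780. The part of granule-gene RNA in these ratios was not tested.

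At the level of the single cell, with every cell thinned to 8000 UMIs, the median cell held 62 UMIs of the members in WT and 73 in KO, from 39 and 43 different members. In the granule gate it held 90 and 87 UMIs, in the HSC gate 55 and 57, and in the mast cell and basophil gate 57 and 48. The single cells gave the same order of groups as the sums.

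The other parts of the machinery showed that the pooled difference was shared with some lists and not with others. The 5 mitoribosomal proteins under other names had a median log2 ratio of 0.15, with Chchd1 at 0.20, Gadd45gip1 at 0.19, Dap3, a GTP-binding small subunit protein, at 0.15, Aurkaip1 at 0.10 and Ptcd3, a pentatricopeptide repeat protein, at -0.11. Nuclear OxPhos subunits (72 genes), whose products join the mitochondrially made ones, went from 26927 to 30572 CPM. Their median was 0.20, with 65 of 72 above 1, beside 38.1% of all genes tested. The OxPhos subunits too moved toward 0 at one mix of groups, with a median of 0.06 and 47 of 72 above 1. At that mix the members had a median of -0.02 and 35 of 78 above 1. All genes tested had a median of -0.06 and 37.5% above 1. The next lists were read in the pooled cells, where all genes tested had a median of -0.08 and 38.1% above 1. Proteins that start, prolong and end mitochondrial translation had 5 of 14 above 1 and a median of -0.07, near those values. Assembly factors had 9 of 19 and -0.00, mitochondrial tRNA synthetases 5 of 11 and -0.04, and mitochondrial transcription factors 0 of 4 and -0.09. Single genes of these lists ran both ways. Mpv17l2, an assembly factor, was at 39.6 CPM in WT and 50.3 in KO (log2 0.34), Tsfm, an elongation factor, at 89.4 and 107.8 (0.27) and Yars2, the tyrosyl-tRNA synthetase, at 36.4 and 42.3 (0.22). Mtif2, the initiation factor, was at 29.02 and 22.8 CPM (log2 -0.35), and Gfm2, a factor of ribosome recycling, at 13.2 and 9.51 (-0.48). The sum of the cytosolic ribosome had a log2 ratio of -0.01 over all cells. It turned to 0.06 at one mix of groups (57 of 85 genes above 1, beside 37.5% of all genes tested) and 0.07 inside the granule gate.

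In the pooled cells, the messages that the mitoribosome translates went the other way from the RNA of its proteins. The 13 mitochondrially encoded mRNAs summed to 25276 CPM in WT and 17890 in KO (log2 -0.50), and 1 of 13, mt-Atp8 at 114 and 122 CPM, was higher in KO. Its reading frame overlaps that of mt-Atp6, which shares its transcript and was lower in KO (log2 -0.59), so its own count is uncertain. In free RNA the 13 genes were at 33166 CPM in WT and 19511 in KO, higher than in the cells and lower in KO as well, and the part of free RNA in the cells' values was not tested. They were lower in KO inside each of the 6 groups, with log2 ratios from -0.22 in the granule gate to -0.44 in the megakaryocyte gate, and were at -0.30 with one mix of groups. The members ran from -0.21 in the mast cell and basophil gate and -0.02 in the granule gate to 0.06 in the HSC gate. They were at 0.01 with one mix of groups, so the 2 lists did not go opposite ways in every group. In both libraries the granule gate, where the mitoribosomal RNA was highest, held the least of these messages, at 18774 CPM in WT and 16170 in KO, and in WT the HSC gate, where mitoribosomal RNA was lowest, held the most, at 31517 CPM. A low share of mitochondrially encoded UMIs was also a condition for a barcode to be kept, although that limit took out only 24 WT and 4 KO barcodes.

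**Figure D5:**
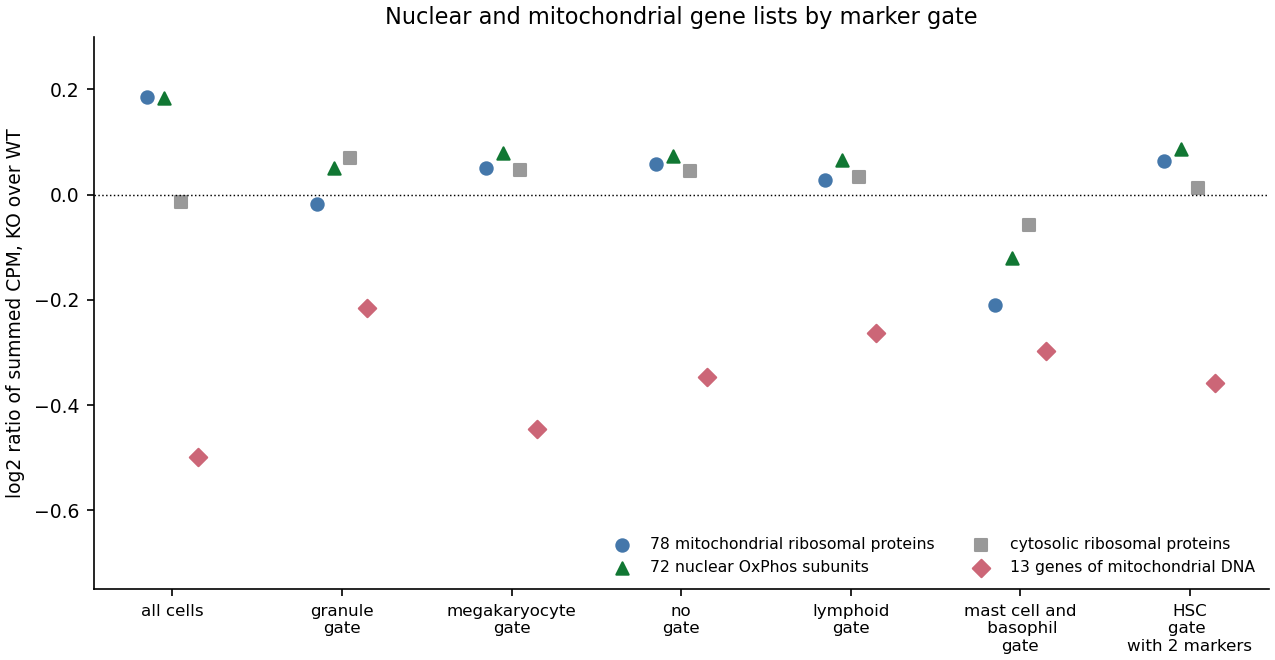
Log2 ratio of summed CPM, KO over WT, of 4 gene lists over all cells and within each cell group. The lists are the mitochondrial ribosomal proteins, the nuclear OxPhos subunits, the cytosolic ribosomal proteins and the mitochondrially encoded genes. Over all cells the mitochondrial ribosomal proteins stand at 0.19 and the nuclear OxPhos subunits at 0.18. The cytosolic ribosomal proteins stand at -0.01 and the mitochondrially encoded genes at -0.50.

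Members lie on 17 chromosomes. Chromosome 11, which holds 11 members and also the miR-142 gene, had a member median log2 ratio of 0.25 beside -0.06 for all tested genes there, and chromosome 3 with 5 members had one of 0.05 beside -0.07. The members have short transcripts, with a median of 1327.5 bases against 2854 in all tested genes. The shorter 39 members had a median log2 ratio of 0.19 and the longer 39 one of 0.14, and over all tested genes the shorter and the longer genes had -0.00 and -0.15. GC content was near that of other genes, with medians of 50.01% and 49.6%. In tested genes within the middle range of member lengths the median log2 ratio was -0.00, below the members' 0.15.

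The promoters of the members were read in RefSeq windows (GRCm38) of 250 bases before to 50 after the annotated start, present for 69 members. The search took the letters GCATGCGC for nuclear respiratory factor 1 (NRF1), CCGGAAG for the ETS family that includes nuclear respiratory factor 2, and AAGATGGC for YY1, on both strands. These factors are known for their sites in nuclear genes of mitochondrial proteins. NRF1 letters were in 8 of 69 member windows (11.6%), against 6.64% of 6038 tested genes and 2.80% of all 27025 windows. ETS letters were in 25 (36.2%), against 22.7% and 9.12%, and YY1 letters in 12 (17.4%), against 5.81% and 2.88%. The TATA letters TATAAA were in 4 windows (5.80%), against 6.62% and 14.2%, the GC box letters GGGCGG in 34 (49.3%), against 67.1% and 35.9%, and the E-box CACGTG in 5 (7.25%), against 11.5% and 7.24%. Of the 8 windows with NRF1 letters, 7 belonged to the large subunit and 1, Mrps18b, to the small. Members with and without NRF1 letters had median log2 ratios of 0.21 and 0.15, those with and without ETS letters 0.18 and 0.14, and those with and without YY1 letters 0.17 and 0.15.

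The 4 windows below are shown for the leading member, 2 of the 4 members that hold both NRF1 and ETS letters, and the lowest member of the small subunit, each 5′ to 3′ along the gene, with NRF1, ETS and YY1 letters of either strand in capitals. They lie at chr6:83108858-83109157 (plus, Mrpl53), chr11:58171414-58171713 (plus, Mrpl22), chr17:35916391-35916690 (minus, Mrps18b) and chr13:99344536-99344835 (plus, Mrps27).
Mrpl53: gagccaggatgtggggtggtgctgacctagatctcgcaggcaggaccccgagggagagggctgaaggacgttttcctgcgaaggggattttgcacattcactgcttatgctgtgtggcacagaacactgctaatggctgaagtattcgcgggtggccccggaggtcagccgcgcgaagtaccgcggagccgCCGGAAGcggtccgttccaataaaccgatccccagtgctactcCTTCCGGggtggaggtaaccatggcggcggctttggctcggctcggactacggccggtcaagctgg
Mrpl22: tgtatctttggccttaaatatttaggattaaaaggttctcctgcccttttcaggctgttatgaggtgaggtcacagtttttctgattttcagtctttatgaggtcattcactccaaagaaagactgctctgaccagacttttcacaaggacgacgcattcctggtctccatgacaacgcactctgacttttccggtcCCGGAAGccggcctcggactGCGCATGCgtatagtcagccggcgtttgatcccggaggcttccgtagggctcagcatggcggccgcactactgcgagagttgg
Mrps18b: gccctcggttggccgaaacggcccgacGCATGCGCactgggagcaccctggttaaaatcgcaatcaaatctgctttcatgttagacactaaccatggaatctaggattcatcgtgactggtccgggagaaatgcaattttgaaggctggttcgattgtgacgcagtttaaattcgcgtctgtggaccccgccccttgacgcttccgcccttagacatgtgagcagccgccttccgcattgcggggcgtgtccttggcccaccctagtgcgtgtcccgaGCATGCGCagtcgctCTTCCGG
Mrps27: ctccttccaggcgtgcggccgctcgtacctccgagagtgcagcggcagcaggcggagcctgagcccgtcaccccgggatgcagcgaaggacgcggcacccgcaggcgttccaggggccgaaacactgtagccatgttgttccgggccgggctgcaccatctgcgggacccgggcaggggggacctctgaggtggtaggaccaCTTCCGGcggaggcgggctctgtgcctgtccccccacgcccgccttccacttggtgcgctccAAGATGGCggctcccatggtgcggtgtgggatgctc

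The Mrpl53 window holds ETS letters in 2 places, 1 on each strand, and no NRF1 letters. The windows of Mrpl22 and Mrps18b hold NRF1 and ETS letters together, and the Mrps27 window ETS and YY1 letters. Mrpl53, with the highest ratio of all members, and Mrps27, with the lowest of the small subunit, both hold ETS letters. A link between the letters and the ratios was not tested.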

How the data were processed

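Single-cell RNA of 2 libraries of LSK cells, 1 per group, was counted by the authors in Cell Ranger. What they deposited was the UMI count of each gene in each barcode, neither normalized nor filtered for cells. The submitters' processing notes name Cell Ranger 6.1.2 and the build mm10, which is GRCm38, the build of the annotation used for positions. Counts were summed over cells in Python 3.11.15 (numpy 2.4.6, scipy 1.17.1, pandas 2.3.3) and scaled to CPM by the total of the cells. With 1 library per group, ratios carry exact conditional binomial intervals for counting error only, and levels exact Poisson intervals. Precision followed from depth: the members held 1271348 UMIs in WT and 1658801 in KO. Thinning to 8000 UMIs used the random seed 142. Doublets were kept. Scrublet in scanpy 1.11.5 marked 1 and 0 cells with its automatic threshold and had not worked, so an alternative left out the top scores, 230 WT and 238 KO cells.

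The 34 named members were, per subunit, the 5 highest and 5 lowest ratios, the 4 highest levels, all past a log2 step of 0.322, and 12 by role. Members, gene lists, gates and markers were chosen with earlier results of these data known. The ratio script was tested on simulated data. Alternatives changed the cell filter, scaling, floor, depth, doublets, gates, subunit assignment and mix of groups. Cell cycle ranges were the top 20% of cells by summed G2/M genes, then by S genes. The study's clusters were not used here. A gene of the pathway lists and a lineage marker are not reported here.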

Additional observations from a re-analysis of the deposited data

Results flagged for a closer look

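In the mast cell and basophil gate the members' summed level was lower in KO (log2 -0.21), while it was higher in the HSC gate (0.064), the lymphoid gate (0.028) and the megakaryocyte gate (0.052). When cells that also met other gates were kept, the mast cell and basophil gate was at 0.0098 and the megakaryocyte gate at -0.040, so the opposition did not hold. With 1 library per group it was not tested. Mrps24 had the same opposition, at -0.74 in the mast cell and basophil gate against 0.25 in the granule gate, 0.28 in the lymphoid gate and 0.21 in the HSC gate, and this difference was not tested. Mrpl9, a relative of bacterial L9, was at 44.5 CPM in WT and 25.2 in KO in the mast cell and basophil gate (log2 -0.82, from 147 and 63 UMIs) and at 0.25 in the HSC gate, and this difference was not tested.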

How the results depend on the processing

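The subunit sums were higher in KO over all cells under every alternative run, and the medians turned with one mix of groups. The large and small subunit sums gave log2 ratios of 0.17 and 0.19 with all barcodes over 300 UMIs, 0.18 and 0.19 from 12000 UMIs, 0.18 for the large subunit under 5% mitochondrial UMIs, 0.26 and 0.28 with median-ratio size factors, 0.20 and 0.22 with every cell thinned, and 0.0045 and 0.026 with one mix of groups. In cells of 8000 to 16000 UMIs they were 0.058 and 0.069, and in deeper cells 0.17 and 0.19. The medians were 0.22 and 0.23 with size factors, -0.014 and -0.020 with one mix of groups, and 0.047 and 0.078 in cells of 8000 to 16000 UMIs, and the small subunit median was 0.21 with thinned cells. Members past the step of 0.322 numbered 25 with size factors, which set the median gene to 0 (11.8% of all genes), 12 with thinned cells (9.14%) and 1 with one mix of groups (6.495%). Of the 34 named members, 24 kept their direction with one mix of groups and 26 with size factors.

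In the gates, the granule gate was at 0.055 with size factors and at -0.037 and -0.0048 with the UMI sum it needed doubled and halved. The lymphoid gate was at 0.056 from 12000 UMIs and 0.059 with size factors. The megakaryocyte gate was at 0.084 from 12000 UMIs, 0.097 with size factors, 0.094 with 1 more marker and -0.040 with cells of several gates kept. The mast cell and basophil gate was at -0.17 from 12000 UMIs, -0.18 with size factors, -0.24 without the top doublet scores, -0.11 with 1 fewer marker and 0.0098 with cells of several gates kept. The HSC gate was at 0.101 from 12000 UMIs, 0.098 with size factors and 0.089 with 3 markers when Hlf was added to the list. The cause of these shifts was not tested. Cells of several gates were at 7673 and 8956 CPM (log2 0.22), and 44 WT and 196 KO cells of them also met the granule gate.

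The erythroid gate (17 and 10 cells), the innate lymphoid gate (8 and 101), the stricter HSC gate (249 and 49) and the lymphoid gate with 1 more marker (3 and 1) held too few cells for a value. No paired analysis was possible because there was 1 library per group and the labels carry no replicate numbers. The intervals cover counting error only, and the spread between mice is not known from 1 library per group.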
